A study of Mus musculus with 9 samples.

Results

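The circadian clock of the mouse cochlea was described through 10 genes: Clock of its activating arm, the repressor genes Per1, Per2, Per3, Cry1, Cry2 and Ciart, the nuclear receptor genes Nr1d1 and Nr1d2, and Dbp, an output factor. They were taken by name, as array probe sets whose platform annotation gave exactly 1 gene symbol among these 10. All 10 genes were found, out of 18193 named genes, with 22 probe sets among the 45037 in the table. A probe set is a group of short probes read together for 1 transcript, and 18 of the 22 were bright enough for testing, which required a mean signal in the range above the 40th percentile of the table. The other 4 (2 of Per3, 1 each of Per2 and Nr1d2) were not tested. The brightest probe set of every gene was among these 18. No clock gene changed past the threshold between the groups. The level of most of them varied widely among the control arrays, much as probe sets of the whole array did.

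Whole cochleae came from male C57BL/6 mice kept under 12 hours of light and 12 hours of dark. Young controls (YC) were 4 months old, and older controls (MC) and calorie-restricted mice (CR) were 15 months old. Controls of either age were given 84 kcal per week, and CR mice 62 kcal per week, 26% less, from 2 months of age on. Each of the 3 arrays per group carried RNA of 4 cochleae pooled from 2 mice, so every array reports a pool and p-values measure the spread between pools. The labels describe the diet both as a fixed weekly allotment and as freely available food. The sources used here do not give the hour of tissue collection or of feeding, so a difference in collection time between groups and an effect of age or diet cannot be told apart. For that reason the values are given array by array.

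The mammalian clock is a transcriptional loop. CLOCK pairs with BMAL1, the product of Arntl, or with NPAS2, and activates genes that carry E-boxes, among them the Per and Cry genes, Nr1d1, Nr1d2, Ciart and Dbp. The PER and CRY proteins then block this activation, while the REV-ERB receptors made from Nr1d1 and Nr1d2 repress Arntl, Npas2 and Clock, so that Arntl peaks when Dbp is low. The cochlea has such a clock, and glucocorticoids and feeding times can shift clocks of peripheral tissues.

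The RefSeq table of promoter windows, assembly GRCm38.p6, held 12 windows for 9 of the 10 genes, each of 250 bases before and 50 after a start site. Per2 was the gene with no window in it. The E-box CACGTG was searched on both strands and was found for 3 genes, Ciart with 3 copies and Per1 and Cry1 with 1 each. Of all 32851 windows, 7.15% held it. The variant CACGTT was found for Cry1, Cry2 and Nr1d1 (4.68% of all windows), and the nuclear receptor core AGGTCA for Clock, Per1 and Nr1d2 (16.3%). Per3 held 2 copies of the D-box TTANGTAA, the type of element that DBP binds (2.32% of all windows). No motif was found in the single Dbp window, and E-boxes outside such windows would not be seen here. No match overlapped another. In Ciart and Nr1d2, CR arrays lay above all others by the brightest probe set after quantile normalization. Cry1 holds an E-box. For these 3 genes the stretches from base -180 to -31, counted from the start site, are shown. All lie on the minus strand and are written in the direction of the gene, at chr3:95882259-95882408 for Ciart, chr10:85185085-85185234 for Cry1 and chr14:18239137-18239286 for Nr1d2. Capitals mark CACGTG in Ciart and Cry1 and AGGTCA in Nr1d2, and the CACGTT of Cry1 is left in lower case.
Ciart: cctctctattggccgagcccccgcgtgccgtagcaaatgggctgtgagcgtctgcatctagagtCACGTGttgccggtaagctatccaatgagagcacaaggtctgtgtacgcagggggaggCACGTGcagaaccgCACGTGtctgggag
Cry1: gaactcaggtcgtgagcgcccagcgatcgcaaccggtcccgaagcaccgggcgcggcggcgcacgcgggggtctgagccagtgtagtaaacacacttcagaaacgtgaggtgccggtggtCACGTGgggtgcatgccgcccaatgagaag
Nr1d2: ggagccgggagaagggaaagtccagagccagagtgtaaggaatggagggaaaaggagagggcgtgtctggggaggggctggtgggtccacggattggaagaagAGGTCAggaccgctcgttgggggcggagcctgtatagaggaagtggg
The 3 E-boxes of Ciart start at bases -116, -58 and -44, that of Cry1 at -60, and the AGGTCA of Nr1d2 at -77. A match is a description of the letters and says nothing of binding in these samples.

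The arrays were not alike in their overall signal. Median deposited signals were 526.8 to 626.6 on CR 1 to 3 and YC 1, and 842.4 to 1103.9 on MC 1 to 3, YC 2 and YC 3, before quantile normalization. Every CR array is in the low class and every MC array in the high class. Restriction and array class are therefore separated only through YC 1. YC 2 stood apart over the whole array. Its Pearson r with each other array was 0.66 to 0.79 on normalized values, against 0.90 to 0.91 between CR arrays. Cochlear tissue markers were present, with Coch and Otos at the 99.2nd percentile of mean signal and 8 of 10 markers above the filter. Of these 8, 7 had a higher mean in CR than in MC, with a median log2 difference of 1.01 (0.34 with array class in the model) and 0 past the threshold. The median for CR minus YC was 1.13. Of 6 hair cell markers, 3 were above the filter. Skeletal muscle transcripts were also carried along. Their mean log2 level over 13 genes was 15.25 to 16.15 in YC, 15.74 to 16.35 in MC and 13.65 to 14.17 in CR. Of the 13 genes, 11 passed as lower in CR than in MC (limma, adjusted p under 0.05). The median difference over the 13 was -2.22, and -1.51 with array class in the model. Most brain and cerebellum markers ran the other way (9 of 9 genes above the filter). Their mean level was 10.55 to 11.62 in YC, 10.25 to 10.93 in MC and 11.73 to 12.54 in CR. A higher mean in CR than in MC was seen for 8 of the 9, with 0 past the threshold. The median difference was 1.525, and 0.69 with array class in the model. Camk2a was lower, at a mean of 12.14 in MC and 11.42 in CR. In such pooled tissue, fewer cells of a type and less RNA per cell cannot be told apart. The part of muscle, brain and cochlear transcripts and array class in the clock values was not tested, except by the class term given below.

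Values below are log2(signal + 16) after quantile normalization, and tests are from limma with Benjamini-Hochberg adjustment over 27022 probe sets. Of the 18 member probe sets, 0 passed an adjusted p of 0.05 in each of the 3 comparisons. Among all 27022 probe sets, 0% passed for MC against YC, 0.0925% for CR against MC and 0% for CR against YC. At an unadjusted p under 0.05 there were 3 of 18 member probe sets for age, against 3.39% of all probe sets. There were 2 of 18 for CR against MC, where 18.5% of all probe sets passed, and 2 of 18 for CR against YC, where 10.8% did. The plot of values by array shows the brightest probe set of each gene.

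**Figure D1:**
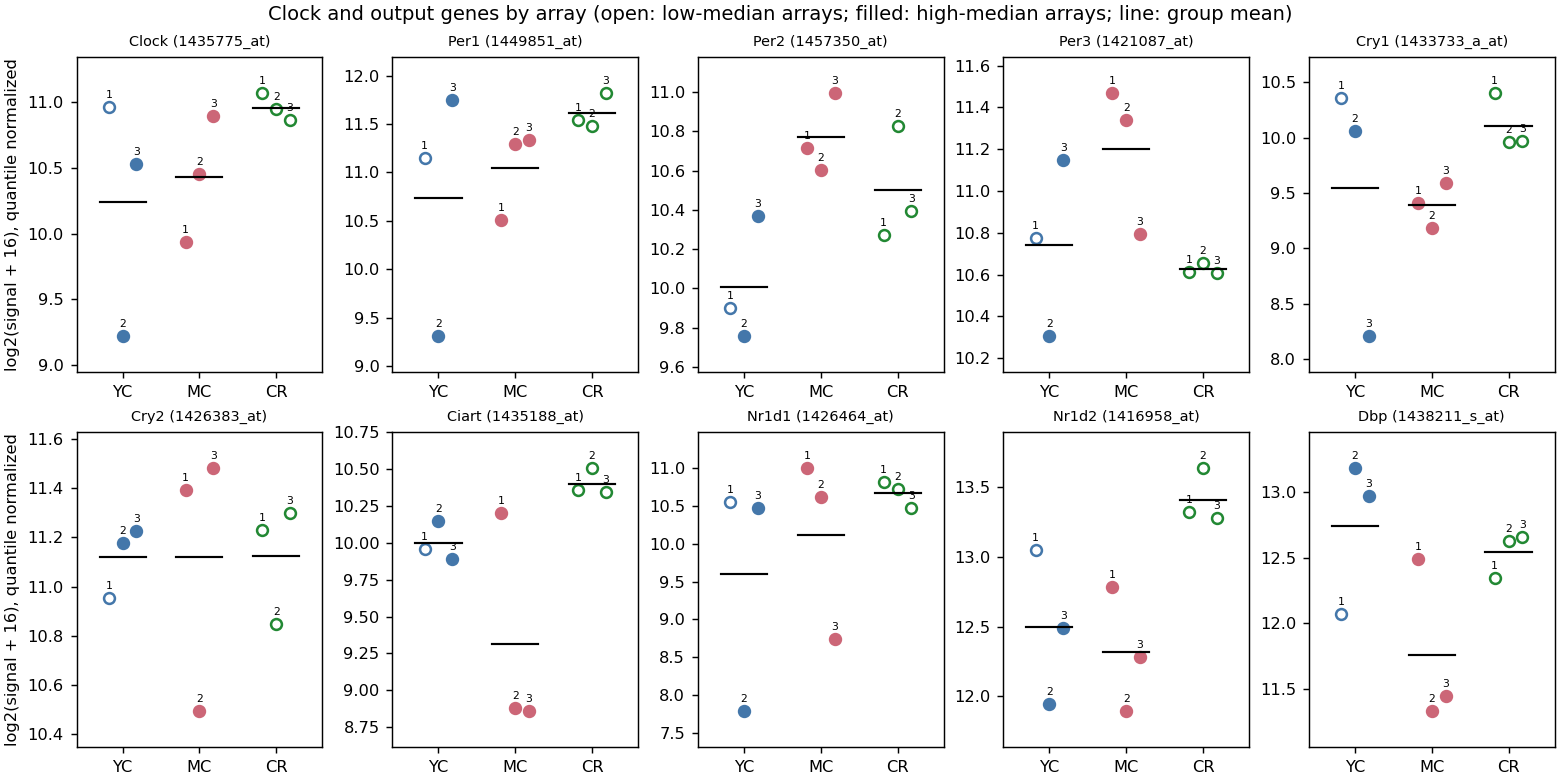
Log2(signal + 16) after quantile normalization (vertical axis) of the brightest probe set of each of the 10 clock genes on the 3 arrays of YC, MC and CR. Points carry the replicate number, open points are arrays of low median signal, filled points arrays of high median signal, and lines are group means. CR arrays lie close together in most panels, while YC and MC arrays are spread.

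Dbp encodes a transcription factor of the PAR bZIP family whose RNA cycles strongly in many tissues. Its brightest probe set read 12.07, 13.18 and 12.97 in YC 1 to 3, 12.49, 11.34 and 11.45 in MC 1 to 3, and 12.34, 12.63 and 12.66 in CR 1 to 3. MC 2 and MC 3 were the lowest of the 9 arrays, and MC 1 lay above YC 1 and CR 1, so that the groups overlapped in each comparison. The mean log2 difference was -0.98 ± 0.36 (SE) for MC minus YC, a 0.506-fold level (limma adjusted p = 1, unadjusted p = 0.0192). For CR minus MC it was 0.79 ± 0.36, a 1.72-fold level (adjusted p = 0.271). These differences share the MC arrays and are not independent of each other. CR and YC differed by -0.20 (95% interval -0.99 to 0.59). The other Dbp probe set read 11.31, 11.08 and 9.25 in MC, so that MC 2 was not low there. Its differences were -0.42 and 0.64 in the same order, with adjusted p = 1 and 0.527. The brighter set carries the suffix s_at, which in the naming of this array type marks probes that can match more than 1 transcript.

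Ciart, the gene of the repressor CHRONO that binds BMAL1, followed a like order of arrays. It read 9.96, 10.15 and 9.89 in YC, 10.21, 8.88 and 8.86 in MC, and 10.36, 10.50 and 10.34 in CR. MC 2 and MC 3 were again the lowest, and all CR arrays lay above all YC and MC arrays on this normalized scale. On the deposited scale they did not. YC 2 (1497.3) and MC 1 (1339) there exceeded every CR array (1093.9, 1304.3 and 1152). CR exceeded MC by 1.09 ± 0.42 (2.12-fold, unadjusted p = 0.0267, adjusted p = 0.225) and YC by 0.40 ± 0.42 (adjusted p = 0.663). The age difference was -0.68 ± 0.42 (adjusted p = 1).

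Nr1d2 encodes REV-ERB beta, a nuclear receptor that represses transcription. Its deposited signals were 10427, 3447 and 5581 in YC, 6316, 3710 and 4414 in MC, and 12484, 14382 and 11437 in CR. On the normalized log2 scale CR arrays read 13.32, 13.64 and 13.28, above all YC arrays (13.05, 11.94 and 12.49) and all MC arrays (12.78, 11.90 and 12.28). The difference CR minus MC was 1.09 ± 0.31, or 2.13-fold (95% interval 0.41 to 1.77 on the log2 scale, unadjusted p = 0.0047, adjusted p = 0.171). It passed in 3 of 20 alternative fits: with array weights (adjusted p = 0.0184), with only CR and MC in the fit (adjusted p = 0.0365) and without YC 2 (adjusted p = 0.0449). These 3 fits called far more probe sets of the whole array than the 25 of the main fit, for example 1147 without YC 2. The array weight estimate stopped before converging. Over all 20 the adjusted p ran from 0.0184 to 1, and when array class was added to the model the difference was 0.26 (adjusted p = 1). CR exceeded YC by 0.92 (adjusted p = 0.457), and the low-median YC 1 was the control array closest to CR. A further Nr1d2 probe set was among the dimmest on the array, at the 2.14th percentile, and was not tested.

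Nr1d1, for REV-ERB alpha, did not separate the groups. It read 10.55, 7.79 and 10.47 in YC, 10.997, 10.61 and 8.74 in MC, and 10.82, 10.73 and 10.47 in CR. YC 2 and MC 3 stood low, by over 1 log2 unit below every other array. The differences were 0.51 ± 0.76 for age and 0.56 ± 0.76 for restriction (adjusted p = 1 and 0.697), and the latter was -0.13 without MC 3.

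The Period genes did not share a pattern. Per1, which is also an early response gene to light and glucocorticoids, read 11.15, 9.32 and 11.75 in YC, 10.50, 11.29 and 11.33 in MC, and 11.54, 11.48 and 11.82 in CR. CR lay above MC with no overlap (0.57 ± 0.53, adjusted p = 0.563), and the wide YC group, with YC 2 lowest, overlapped CR. Per2 read 9.90, 9.76 and 10.37 in YC, 10.71, 10.60 and 10.99 in MC, and 10.27, 10.83 and 10.40 in CR by its brightest probe set. MC lay above YC with no overlap (0.76 ± 0.32, 1.69-fold, unadjusted p = 0.0381, adjusted p = 1), and it was the only gene whose brightest probe set separated MC from YC. Its restriction difference was -0.27 ± 0.32 by that probe set and 0.57 ± 0.35 by the next (adjusted p = 0.652 and 0.384), and the third lay below the filter.

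Per3, a Period gene that the core loop does not require, had 6 probe sets, 4 of them tested. The brightest read 10.77, 10.31 and 11.15 in YC, 11.47, 11.34 and 10.79 in MC, and 10.61, 10.65 and 10.61 in CR. All CR arrays lay below all MC arrays, with a difference of -0.57 ± 0.31 (0.672-fold, adjusted p = 0.337). Of the other tested probe sets, 2 had CR below MC as well, at -0.68 and -0.48, and 1 had it above, at 0.60. The lowest unadjusted p of all member tests for age came from another Per3 probe set, at 2.48 times the YC level in MC (10.13, 9.12 and 10.28 in YC; 11.42, 11.40 and 10.62 in MC; unadjusted p = 0.00672, adjusted p = 1). The remaining 3 tested Per3 probe sets gave log2 differences of 0.46, 0.18 and 0.02, or 1.37, 1.14 and 1.01 times the YC level. A change of this size was thus not seen across the gene.

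Cry1 and Cry2 encode the cryptochromes, the main inhibitors of CLOCK and BMAL1. Cry1 read 10.36, 10.06 and 8.21 in YC, 9.41, 9.19 and 9.59 in MC, and 10.40, 9.96 and 9.97 in CR. CR lay above MC with no overlap (0.72 ± 0.55, adjusted p = 0.48), and YC spanned more than that gap. On the deposited scale CR and MC overlapped, with MC 3 (983.7) above CR 2 and CR 3 (833.6 and 847). Cry2 was level across the groups, with means of 11.12 ± 0.14 (SD) in YC, 11.12 ± 0.54 in MC and 11.12 ± 0.24 in CR (n = 3 each). Its interval for CR minus MC was -0.69 to 0.70, which leaves room for a change of up to that size.

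Clock encodes the activating partner of BMAL1 and had 4 tested probe sets. The brightest read 10.96, 9.22 and 10.53 in YC, 9.94, 10.45 and 10.90 in MC, and 11.06, 10.94 and 10.86 in CR. YC 2 was lowest, and CR overlapped MC through MC 3. The restriction difference was above 0 in all 4 probe sets, from 0.40 to 1.26, with adjusted p from 0.277 to 0.624. In the model that includes array class, the brightest one gave -0.56 (adjusted p = 1).

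**Figure D2:**
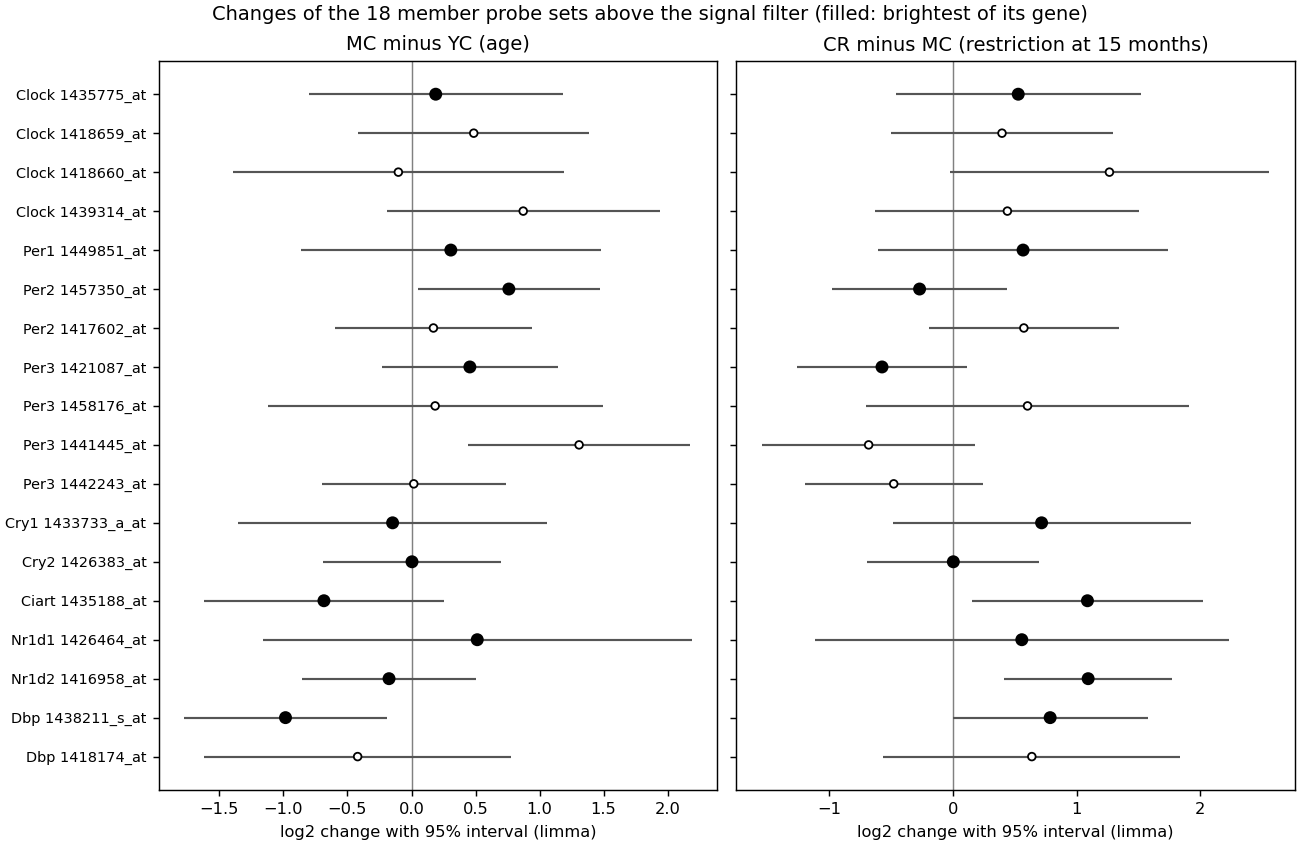
Log2 change with its 95% interval (horizontal axis) for the 18 tested probe sets of the 10 clock genes, for MC minus YC at left and CR minus MC at right. Filled points are the brightest probe set of a gene, and open points its other probe sets. The age interval excludes 0 for 1 probe set each of Per2, Per3 and Dbp, and the restriction interval for Ciart and Nr1d2, all before adjustment.

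Groups that did not overlap after quantile normalization were counted next, over the 18 tested member probe sets. MC lay wholly above YC in 3 and wholly below it in 0, against 2.97% and 2.92% of all probe sets. CR lay wholly above MC in 7 and wholly below it in 2, against 19.5% and 18.2% of all probe sets. CR lay wholly above YC in 5 and wholly below it in 0, against 11.4% and 9.1%. The 3 probe sets for age belong to Clock, Per2 and Per3. Those with CR wholly above MC belong to Clock, Per1, Per2, Cry1, Ciart and Nr1d2, and those with CR wholly below MC to Per3. Those with CR wholly above YC belong to Clock, Per2, Ciart and Nr1d2. Counting only the brightest probe set of each of the 10 genes, MC lay wholly above YC for Per2, CR wholly above MC for 4 genes (Per1, Cry1, Ciart and Nr1d2) and wholly below it for Per3, and CR wholly above YC for Ciart and Nr1d2.

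By the brightest probe sets, 8 of 10 clock genes had a higher mean in CR than in MC, with a median log2 difference of 0.56. Over all probe sets 54.7% had a higher mean in CR, with a median of 0.08. When arrays were centred on their median instead, the median of all probe sets was 0.58 and that of the clock genes 0.95, and 8 of the 10 genes lay above the former. On the scale as deposited these medians were -0.04 and 0.33, again with 8 genes above. For CR against YC, 8 of 10 clock genes had a higher mean in CR, with a median of 0.53, against 54.7% and 0.08 over all probe sets. Adding array class to the model brought the CR minus MC median over the clock genes to -0.08, with negative values for Clock, Per1, Cry1 and Nr1d1, and the CR minus YC median to 0.26. For age, 6 of 10 genes had a higher mean in MC and the median was 0.10, against 52.3% and 0.02 over all probe sets. With arrays centred on their median, 3 of 10 genes had a higher mean in MC, with a median of -0.13, against 35.7% and -0.15 over all probe sets. With array class in the model the age median was 0.37. The age median was -0.36 without YC 2 and 0.36 without YC 1.

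**Figure D3:**
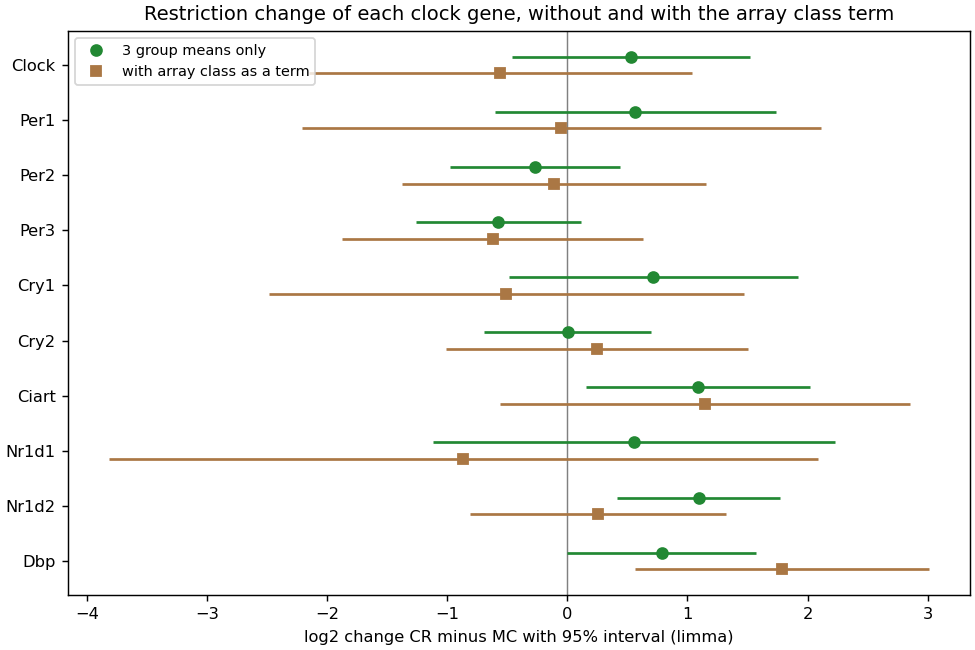
Log2 change CR minus MC with its 95% interval (horizontal axis) for the brightest probe set of each clock gene, fitted with group means only (circles) and with array class added (squares). The intervals widen with the class term, Clock, Per1, Cry1 and Nr1d1 cross to the negative side, and Dbp moves from 0.79 to 1.79.

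The class term moved the genes in different directions. The Ciart difference for restriction was 1.15 with it (adjusted p = 1). Dbp was 1.79 with an interval of 0.57 to 3.01 (unadjusted p = 0.00868, adjusted p = 1). Within the high-median class alone, MC 1 to 3 were set against YC 2 and 3. Dbp was lower by a log2 difference of -1.32, from a mean of 13.08 in YC to 11.76 in MC. The class-term fit must give this same age value, and its 1.79 follows from that and the CR minus YC value. The 1.79 and the -1.32 are thus not separate results. Within the low-median class, CR 1 to 3 exceeded YC 1 by 0.47 for Dbp, 0.44 for Ciart and 0.36 for Nr1d2. That class holds a single young array. The class-term fit must give the same CR minus YC values, since only YC holds arrays of either class, so it adds no second result. In that fit adjusted p = 1 for each (limma, unadjusted p = 0.298 for Dbp, 0.476 for Ciart and 0.358 for Nr1d2).

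Replicates of the restricted group were closer to each other than those of the controls, for clock genes as for the whole array. The median SD of the 18 member probe sets was 0.20 in CR, 0.46 in MC and 0.61 in YC. Over all probe sets it was 0.21, 0.44 and 0.57. CR had the smallest SD of the 3 groups in 12 of the 18, and in 68.8% of all probe sets. YC 2 was the lowest of the 9 arrays for 5 of the 10 genes (25.6% of all probe sets), and MC 2 for 3 of them (8.56%). YC 2 was also the highest array for 22% of all probe sets, so its extreme values were not particular to clock genes.

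Other genes of the pathway were read from a list of 22, of which 15 were above the filter, and 0 of these passed in any comparison. For CR against MC, 10 of 15 had a higher mean, with a median of 0.09, against 54.7% and 0.08 over all probe sets. Of the 15, 1 lay wholly above MC and 2 wholly below, against 19.5% and 18.2% of all probe sets. Nampt, which makes the NAD precursor and is under clock control, had the smallest p: it read 11.30, 11.70 and 11.13 in MC against 12.05, 12.56 and 12.47 in CR (0.99 ± 0.27, adjusted p = 0.162). Its next probe set gave 0.30 (adjusted p = 0.514). Nampt passed in the same 3 alternative fits as Nr1d2, with adjusted p from 0.0202 to 0.0477, and was 0.45 with the class term. Wee1, a cell cycle kinase gene with E-boxes, differed by 1.70 (adjusted p = 0.291), and Bhlhe40, an E-box repressor gene, by 0.80 (adjusted p = 0.613). With the class term these differences were -0.65 and -1.48. The Wee1 groups overlapped, at 11.16, 8.10 and 8.75 in MC and 10.85, 10.85 and 11.40 in CR.

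Of the activating partners, Npas2 read 9.06, 9.99 and 9.51 in MC and 8.67, 8.03 and 8.997 in CR, wholly lower in CR with a difference of -0.95 (adjusted p = 0.306). Arntl gave 0.16 for CR minus MC and 0.97 for age by its brightest probe set (adjusted p = 0.906 and 1). With the class term, CR minus MC was -1.75 for that Arntl probe set, 0.07 for the other and -0.47 for Npas2. The Arntl probe sets disagreed on single arrays: YC 2 read 7.52 on one, the lowest of the 9 arrays, and 10.53 on the other, the highest.

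To set the arms of the loop against each other, the mean of Dbp, Per2, Per3, Nr1d1, Nr1d2 and Ciart minus that of Arntl and Npas2 was taken on each array, each gene centred on its own mean. It is a description of single arrays with no test. The value was -0.33, 0.53 and -0.11 in YC 1 to 3, 0.52, -0.93 and -0.89 in MC 1 to 3, and 0.25, 0.78 and 0.20 in CR 1 to 3. MC 2 and MC 3 were the lowest arrays, MC 1 lay with the CR arrays, and no CR array was below 0. With the other Arntl probe set, YC 2 moved from 0.53 to -1.15 and became the lowest array, while MC 2 and MC 3 stood at -0.63 and -0.96. In that version YC 1, YC 3 and MC 1 stood at 0.25, 0.60 and 0.25, within the CR range of 0.23 to 0.96. By their own values given above, the low MC means of Dbp and Ciart rested on 2 of 3 pools, so the older controls were not alike. Not all genes set with them in the contrast were low. On MC 2, Per2 (10.60), Per3 (11.34) and Nr1d1 (10.61) stood above their own means (10.43, 10.86 and 10.13). Nr1d2 stood below its own (11.90 against 12.74).

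**Figure D4:**
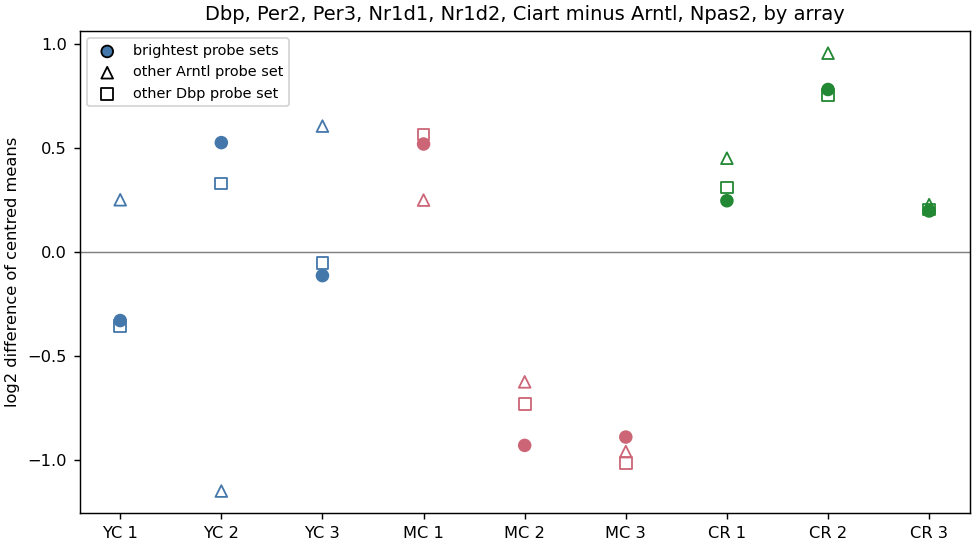
Mean centred log2 value of Dbp, Per2, Per3, Nr1d1, Nr1d2 and Ciart minus that of Arntl and Npas2 (vertical axis) on each of the 9 arrays. Circles use the brightest probe sets, triangles the other Arntl probe set and squares the other Dbp probe set. MC 2 and MC 3 lie below -0.60 in each version, and CR arrays and MC 1 lie above 0 in each. YC 1 and YC 3 lie above 0 with the other Arntl probe set.

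Genes that respond to hormones or handling were read beside these. All 6 glucocorticoid target genes had a higher mean in CR than in MC, with 0 past the threshold and a median of 0.51. Their mean log2 level was 12.66 to 13.33 in YC, 12.96 to 13.32 in MC and 13.45 to 13.79 in CR. Among them Mt2, a metallothionein gene, had the smallest p (1.09 ± 0.20, adjusted p = 0.0896). With array class in the model Mt2 gave 0.55 (adjusted p = 1), Mt1 gave -0.07 and Tsc22d3 -0.68, and the median of the 6 genes was 0.34. Immediate early genes, which rise quickly after stimulation, gave a mean level of 10.75 to 10.93 in CR against 10.81 to 11.33 in MC and 10.31 to 11.05 in YC. By gene, 6 of 8 had a higher mean in CR than in MC, with a median difference of 0.11 and 0 past the threshold. The part of glucocorticoids or handling in the Per1, Nr1d2 and Dbp values was not tested.

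The array pattern of Dbp was compared with that of every other named gene above the filter by the root mean square difference of centred log2 values over 9 arrays, each gene by its closest probe set. The closest 5 of 13701 genes were Strbp (0.24), Mxd4 (0.26), Cited2 (0.26), Scrn1 (0.27) and Ablim1 (0.29). Among the clock genes Ciart came closest, at rank 68 with 0.37. Nr1d2 stood at rank 6490 (0.73), Per1 at 11948 (1.08) and Nr1d1 at 12751 (1.26). Strbp had the same low arrays as Dbp, at 9.33 in MC 2 and 9.86 in MC 3 against 10.34 to 10.93 on the other arrays.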

How the data were processed

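Whole-cochlea RNA of 3 pools per group was read on single-colour arrays with biotin-labelled cRNA, per the labels' protocols. The authors deposited linear signal intensity values for 45037 probe sets. GCOS 1.3 is named in the submitters' processing notes; the algorithm behind the signals and detection calls were not given in the sources used here. With 2% of values trimmed from either end, array means were 1494 to 1496, which shows per-array scaling. Fold changes of dim probe sets are understated by the added 16.

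Signals were converted to log2(signal + 16), quantile normalized, and filtered at the 40th percentile of probe set means (27022 kept). Group means of all 9 arrays were fitted in limma 3.58.1 (R 4.3.3, eBayes with a variance trend), and p was adjusted by Benjamini-Hochberg over all 27022. The median SE of a log2 difference was 0.43, which depends on the number of arrays and on the spread between pools. Probe sets were named by the platform annotation (34945 with 1 symbol, 932 with several, 9160 unnamed here), updated by gene ID through RefSeq GRCm38.p6. Array class divides arrays at the largest gap between median signals. The code was tested on simulated data.

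The members, gene lists and alternatives were chosen with earlier results of these data known. Described genes are all 10 members by their brightest probe set, the 4 other pathway genes with the smallest F-test p (Nampt, Npas2, Wee1 and Bhlhe40), Arntl, and the 5 genes nearest to Dbp. The values within array classes and the other Arntl and Dbp probe sets in the arm contrast were added after the data were seen. Marker lists were skeletal muscle, brain and cerebellum, cochlear tissue, hair cell, marrow and blood (6 of 7 genes above the filter lower in CR than in MC, median -0.52, 0 past the threshold), immediate early and glucocorticoid target genes.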

Additional observations from a re-analysis of the deposited data

How the results depend on the processing

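Over 20 alternatives, 43 of 597 recomputed differences of the brightest member probe sets changed sign, 13 of 30 differences never did, and 3 passed the threshold, all of them Nr1d2 for CR minus MC. The count of all called probe sets for CR minus MC (25) was 0 with arrays centred on their median, without a variance trend, with array class as a term and with the replicate block. It was 7 in the table as deposited, 3397 with array weights (whose estimate stopped before converging), 1846 with only the compared groups, and 0 to 1147 when single arrays were left out. It was 0 without MC 1, MC 3, CR 2 or CR 3, 2 without CR 1, 49 without MC 2, 209 without YC 1 and 1147 without YC 2. For CR minus YC it ran from 0 to 328, the latter without YC 1. The count of member probe sets called for CR minus MC was 1 with array weights, with only the compared groups and without YC 2 (range 0 to 1), and that of other clock genes (Nampt) was 1 in the same fits (range 0 to 1). The F test over the 3 groups called 1 member probe set with array weights.

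Signs turned as follows, and the cause was not tested. With array class as a term, the CR minus MC values were -0.56 for Clock, -0.51 for Cry1, -0.87 for Nr1d1 and -0.051 for Per1. The CR minus YC values were -0.0074 for Clock, -0.25 for Cry1 and 0.47 for Dbp, and the age values 0.26 for Cry1, -0.078 for Cry2 and 0.10 for Nr1d2. With arrays centred on their median, age gave -0.072 for Clock, -0.20 for Cry2 and -0.042 for Per1, CR minus MC gave 0.14 for Per2, and CR minus YC gave 0.52 for Dbp and 0.099 for Per3. As deposited, Cry1 gave 0.034 for age, Cry2 -0.011 for CR minus MC and -0.00077 for CR minus YC, and Dbp 0.11 for CR minus YC. With array weights age gave -0.16 for Clock and -0.0032 for Cry2. Leaving out single arrays, the age values ran from -0.33 to 0.53 for Clock, -0.82 to 0.27 for Cry1, -0.18 to 0.32 for Cry2, -0.40 to 1.22 for Nr1d1, -0.47 to 0.10 for Nr1d2 and -0.42 to 0.82 for Per1. CR minus MC ran from -0.31 to 0.19 for Cry2 and -0.13 to 1.01 for Nr1d1. CR minus YC ran from -0.099 to 0.96 for Cry1, -0.078 to 0.14 for Cry2, -0.52 to 0.023 for Dbp and -0.35 to 0.084 for Per3.

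Same-numbered arrays did not deviate together (r from -0.29 to 0.27, and 0 of 9 arrays correlated best with their own number), so the replicate block pairs arrays by number only. It called 0 member probe sets. With 3 pools a group, 95% intervals of the clock genes reached as far as 2.74 log2 units, and a missing call does not show that levels were equal.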
